A study of Mus musculus with 3 samples.

Results

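The genes described here are 10 transcription factors that mark mesenchymal identity in limb and connective tissue: Sox9, Etv1, Osr1, Osr2, Meox1, Meox2, Twist1, Twist2, Prrx1 and Tcf21. They were chosen by name from among the 21438 genes listed in the 4 count tables, and their rows were read in every table that lists them. Mouse sciatic nerve cells were profiled by Drop-seq, a droplet method that tags each captured transcript with a unique molecular identifier (UMI). The injured groups were cells of the distal segment of the sciatic nerve of adult wild-type CD1 mice, prepared with myelin removal beads 9 days after the nerve was resected, and cells of the same segment and day from adult CD1 and C57BL/6 mice, sorted by FACS. The uninjured group was sciatic nerve cells of adult wild-type CD1 mice prepared with the same kind of beads, of which only the cells that the authors predicted to be mesenchymal were used. The labels name no transgene, Cre driver or drug in any group, and the sources used here do not say how many animals entered each library.

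Each group was 1 library, so no test between groups was possible. The injured bead library had 4300 cell barcodes and 10859939 UMIs, of which 1289 barcodes with 4746263 UMIs made up the authors' mesenchymal table, and those columns were identical in both tables. The injured FACS library had 2000 barcodes with 7122377 UMIs, and the uninjured mesenchymal cells were 880 barcodes with 2169121 UMIs. The median depth was 2798 UMIs in the injured mesenchymal cells prepared with beads and 2103 in the uninjured ones. The bead and FACS libraries had 1 barcode in common, and neither shared any with the uninjured table. All 7 mesenchymal markers (Pdgfra, Col1a1, Col1a2, Col3a1, Dcn, Lum and Pcolce) were detected in all 3 mesenchymal pools. Levels are given as CPM, the UMIs of a gene per 1000000 UMIs summed over the cells of a pool, with exact Poisson 95% intervals. All intervals cover counting error only and not the spread between animals. In a pool, fewer cells that express a gene and less of its RNA per cell cannot be told apart.

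These factors belong to several families. Sox9 is an HMG-box factor required for cartilage formation and active in neural crest. Etv1 is an ETS factor downstream of receptor tyrosine kinase signalling. Osr1 and Osr2 are the odd-skipped zinc-finger factors of limb connective tissue and joint mesenchyme. Meox1 and Meox2 are homeobox factors of the somites, and Meox2 is also known from vascular endothelium. Twist1, Twist2 and Tcf21 are basic helix-loop-helix factors, which bind E-boxes, and Prrx1 is a paired-related homeobox factor of limb mesenchyme. The connective tissue of a peripheral nerve has an endoneurium among the axons, a perineurium around each fascicle and an epineurium around the whole nerve, each with its own fibroblast-like or sheath cells.

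The genes lie on 5 chromosomes in the GRCm38 (mm10) assembly, by the GENCODE vM21 annotation, and all 10 are protein coding. Etv1 is at chr12:38779380-38870484 on the plus strand and Prrx1 at chr1:163245119-163313710 on the minus strand. Sox9 is at chr11:112782224-112787760, Osr2 at chr15:35296098-35303305 and Osr1 at chr12:9570116-9581500, all on the plus strand. The 4 promoter windows below are shown because Etv1, Meox2 and Prrx1 had different patterns across the mesenchymal subclasses below. The windows run from 250 bases before a RefSeq transcription start to 50 bases after it (GRCm38.p6), and the table of RefSeq promoters had an entry for 6 of the 10 genes. Capitals mark matches on either strand to the E-box CANNTG, to the homeodomain core TAATTA or to the SOX core ACAANG. The windows are chr12:38779832-38780131 and chr12:38783461-38783760 for a pair of Etv1 starts, chr12:37108290-37108589 for Meox2 (all plus strand) and chr1:163313601-163313900 for Prrx1 (minus strand).
Etv1 upstream start: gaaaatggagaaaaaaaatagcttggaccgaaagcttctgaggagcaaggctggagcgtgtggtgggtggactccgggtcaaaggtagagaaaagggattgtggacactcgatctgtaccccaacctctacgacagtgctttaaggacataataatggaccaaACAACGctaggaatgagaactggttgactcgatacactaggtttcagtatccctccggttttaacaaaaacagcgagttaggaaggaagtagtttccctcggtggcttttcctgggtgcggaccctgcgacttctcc
Etv1 downstream start: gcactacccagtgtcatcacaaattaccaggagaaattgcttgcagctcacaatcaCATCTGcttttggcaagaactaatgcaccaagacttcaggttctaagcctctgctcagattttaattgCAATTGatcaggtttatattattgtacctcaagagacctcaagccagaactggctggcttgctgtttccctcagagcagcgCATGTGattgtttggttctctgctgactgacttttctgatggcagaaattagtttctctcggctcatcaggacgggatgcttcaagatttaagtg
Meox2: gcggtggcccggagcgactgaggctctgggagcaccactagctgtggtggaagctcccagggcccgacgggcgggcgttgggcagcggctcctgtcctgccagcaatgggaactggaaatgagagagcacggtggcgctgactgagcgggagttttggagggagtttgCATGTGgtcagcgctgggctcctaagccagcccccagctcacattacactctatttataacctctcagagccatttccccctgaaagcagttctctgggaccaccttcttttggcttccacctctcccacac
Prrx1: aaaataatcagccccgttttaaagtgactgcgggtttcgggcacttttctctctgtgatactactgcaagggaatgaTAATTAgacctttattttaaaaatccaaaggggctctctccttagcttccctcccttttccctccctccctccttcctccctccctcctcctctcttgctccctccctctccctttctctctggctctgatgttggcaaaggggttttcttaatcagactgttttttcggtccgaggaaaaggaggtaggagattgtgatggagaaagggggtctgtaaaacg
The upstream Etv1 window held 1 SOX core and no E-box, and the downstream one held 3 E-boxes. The Meox2 window held 1 E-box and the Prrx1 window 1 TAATTA core. Of 32851 RefSeq promoter windows of the same length, 72.3% held an E-box, 5.29% held TAATTA and 41.2% held the SOX core, so only the TAATTA match was of an uncommon motif. The windows of Twist1, Twist2 and Tcf21 held none of the 3 motifs. A match describes letters and is no evidence of binding.

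Among the cell classes of the injured nerve, Sox9, Osr1 and Osr2 were at their highest in mesenchymal-like cells, whereas Meox1 was highest in endothelial-like cells and Prrx1, in the bead library, in pericyte or smooth muscle-like cells. Classes were named from marker lists that hold none of the 10 factors, after clustering without them. The bead library gave 1124 mesenchymal-like cells and 8 other named classes, and the FACS library 652 mesenchymal-like cells and 5 others. Sox9 had 157 CPM (146 to 169) in mesenchymal-like cells of the bead library, against 10.6 CPM in Schwann-like cells, the next class. Osr2 had 108 CPM (98.5 to 118) there, against 10.6 CPM (4.27 to 21.9) in pericyte or smooth muscle-like cells. For both genes the mesenchymal interval lay above that of every other class of the bead library. It did so for 0 genes with at least 500 genes per cell and for 0 with every cell thinned to 1000 UMIs. In the FACS library Sox9 had 115 CPM and Osr2 94.5 CPM in mesenchymal-like cells. The endothelial-like cells of that library had 9.69 and 6.46 CPM of the same genes, and the phagocyte-like cells 3.32 and 3.87 CPM. The 16 neutrophil-like cells of that library held 1 Sox9 UMI, which gives 110 CPM (2.77 to 610), and no Osr2 UMI, so their intervals overlapped the mesenchymal ones.

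Osr1 had 64.1 CPM in mesenchymal-like cells of the bead library and 71.4 CPM in those of the FACS library. In the Schwann-like, endothelial-like, pericyte-like and phagocyte-like cells of the bead library Osr1 had between 1.96 and 4.22 CPM, all below its mesenchymal interval of 57.0 to 71.9. Etv1 had 36.5 CPM (31.1 to 42.4) in mesenchymal-like cells, against 15.2 CPM (7.27 to 27.9) in pericyte or smooth muscle-like, 11.3 CPM in Schwann-like, 10.8 CPM in endothelial-like and 10.5 CPM in phagocyte-like cells. Etv1 thus had between 10.5 and 15.2 CPM in each of those other classes. Mast-like and neutrophil-like pools were small, and their intervals overlapped the mesenchymal one for Etv1 and Osr1 in both libraries. For Etv1 in the FACS library, Schwann-like cells overlapped as well. They had 16.6 CPM (4.53 to 42.5), against 29.4 CPM (24.5 to 35.0) in mesenchymal-like cells. A limit of at least 100000 UMIs per class was set after the values were seen. Among those classes, the mesenchymal interval lay above all others for 4 genes in the bead library (Sox9, Etv1, Osr1, Osr2). In the FACS library it did so for 5 (Sox9, Osr1, Osr2, Twist1, Prrx1). No count of this kind, here or in the paragraph above, was made over all genes.

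The homeobox factors were shared with vascular cells. Meox1 had 108 CPM (94.6 to 124) in endothelial-like cells of the bead library, against 45.5 CPM (39.5 to 52.1) in mesenchymal-like cells. The FACS library gave 87.2 CPM (57.5 to 127) against 24.7 CPM for the same pair of classes. Meox2 had 301 CPM (278 to 326) in endothelial-like, 252 CPM (215 to 293) in pericyte or smooth muscle-like and 214 CPM (201 to 228) in mesenchymal-like cells of the bead library. The endothelial-like and pericyte-like intervals of Meox2 overlapped, as did the pericyte-like and mesenchymal-like ones. In the FACS library the order of Meox2 was the other way, with 230 CPM (216 to 245) in mesenchymal-like cells against 165 CPM (123 to 217) in endothelial-like cells, and those intervals overlapped as well. Prrx1 had 772 CPM (706 to 842) in pericyte or smooth muscle-like cells, against 343 CPM (326 to 360) in mesenchymal-like cells. The FACS library had no cluster named as pericyte or smooth muscle at the main clustering resolution of 0.8. At resolution 1.6 a cluster of 16 cells had that name. The endothelial-like FACS cluster at 0.8 had 74.3 CPM of Prrx1, against 333 CPM in mesenchymal-like cells. The pericyte marker Rgs5 was among its leading genes.

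The basic helix-loop-helix genes had low counts. Twist1 had 62.6 CPM (55.5 to 70.3) in mesenchymal-like cells of the bead library, against 39.4 CPM (25.8 to 57.8) in pericyte or smooth muscle-like cells, and the intervals overlapped. In the FACS library Twist1 had 44.3 CPM in mesenchymal-like cells, against 12.9 CPM in endothelial-like cells. Twist2 had 21.7 CPM in mesenchymal-like and 9.10 CPM in pericyte-like cells of the bead library, with overlapping intervals. A Twist2 UMI was held by 0 of 574 endothelial-like cells, with an upper Poisson limit of 1.81 CPM. Tcf21 was practically undetected: 1 UMI in 1 of 4300 barcodes of the injured bead library, in an epineurial-like cell. The Tcf21 row was missing from the uninjured table and was read as no UMI in 880 cells. With 3 cells that held a UMI, the share would be 0.341%. That value is not an exact upper limit, and it is no limit on the share of cells that express the gene. The FACS table does not list Tcf21 and gave no value for it.

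**Figure D1:**
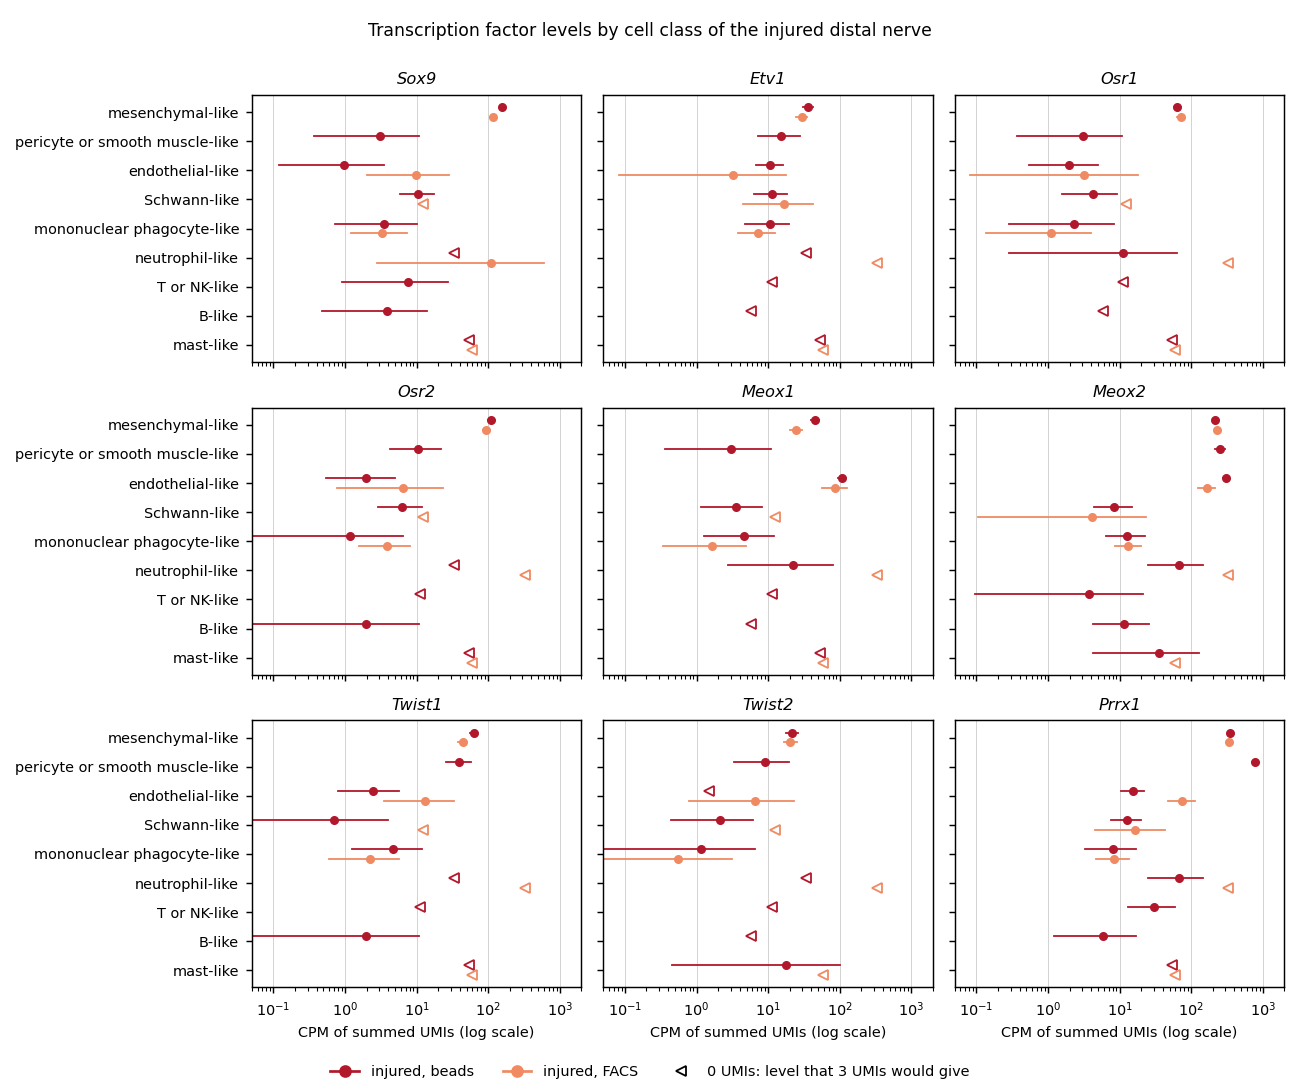
Level of 9 factors in each named cell class of the injured nerve, as CPM on a log axis, with exact Poisson 95% intervals, 1 library per colour and 1 pool of cells per point. Open triangles mark pools with 0 UMIs at the level that 3 UMIs would give. Sox9 and Osr2 in mesenchymal-like cells lie above every other class of the bead library, Meox1 is highest in endothelial-like cells and Prrx1 in pericyte or smooth muscle-like cells.

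With every cell thinned to 1000 UMIs, Sox9 was found in 9.60% of 896 mesenchymal-like cells of the bead library, against 0.769% of 130 B-like cells and 0.260% of 385 endothelial-like cells. Osr2 was found in 8.48% of those mesenchymal-like cells, against 0% of the B-like cells and 0.519% of the endothelial-like cells. Shares in B-like cells, which should lack these factors, were 0% for Etv1, Osr1, Osr2, Meox1, Twist1, Twist2 and Prrx1 and 1.54% for Meox2. Without thinning the median depth was 3304 UMIs in mesenchymal-like and 763 in B-like cells, and the Sox9 shares were 26.9% and 0.514%. An unnamed cluster of 341 shallow cells, led by haemoglobin genes and with a median of 550 UMIs, was left out of the class comparison. Its marker score was highest for the mesenchymal list (4.29), followed by the erythroid list (3.86), with all 7 mesenchymal markers detected. It held Prrx1 at 342 CPM and Meox2 at 354 CPM. The class comparison also left out 351 unnamed cells of the FACS library. Among them was a cluster of 90 cells with its highest score for the mesenchymal list.

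Within the mesenchymal cells, the factors separated into an endoneurial and an epineurial set in all 3 libraries. Sox9, Etv1, Osr2 and Meox1 were higher in endoneurial-like than in epineurial-like cells of every library, and Osr1 and Prrx1 were lower in every library. Subclasses were named from other marker genes: endoneurial-like from Abca9, Cdkn2b, Plxdc1, Smoc2, Wif1, Mme, Apod and Angptl7, epineurial-like from Pcolce2, Pi16, Dpp4, Ly6c1, Clec3b, Sfrp2 and Cd34, perineurial-like from genes such as Itgb4, Slc2a1 and Krt19, and differentiating-like from Dlk1, Mest, Postn, Tnc, Cthrc1 and Fbn2. The injured bead cells held 252 endoneurial-like, 196 epineurial-like, 74 perineurial-like and 394 differentiating-like cells, and the uninjured cells held 426, 382, 66 and 1 of the same subclasses. The FACS cells held 88 endoneurial-like, 229 epineurial-like and 144 differentiating-like cells. Another 191 FACS cells stayed unnamed, among them a cluster of 131 cells that scored highest for the perineurial list. Of the injured bead cells, 373 stayed unnamed, with a median of 631 UMIs. The injured endoneurial-like cells came almost all from 1 cluster, number 3, and the uninjured ones all from another, number 0, so a separate cluster held the subclass in each library. A gene was called where it reached 10 CPM in 1 pool of the pair, differed at least 2-fold and had an interval of the ratio that excluded 1. By that rule 4 of 9 members were higher and 3 lower in the injured bead cells, beside 8.01% of all 9583 genes higher and 13.0% lower. In the injured FACS cells 4 were higher and 2 lower, beside 8.16% and 10.6% of 9512 genes. In the uninjured cells 4 were higher and 3 lower, beside 8.73% and 11.3% of 9374 genes.

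Etv1 had 83.7 CPM in endoneurial-like cells of the injured bead library, from 140 UMIs, against 0 UMIs in epineurial-like cells. The endoneurial-like value was 11.2-fold the level that 3 UMIs would give in those epineurial-like cells, without the counting error of the 140 UMIs. With that error, the interval of the log2 ratio had a lower limit of 3.17 and no upper limit. In the FACS library Etv1 had 89.0 CPM in endoneurial-like cells against 5.85 CPM in epineurial-like cells (log2 ratio 3.93, 2.81 to 5.29). The uninjured cells gave 127 CPM against 9.86 CPM (3.69, 2.72 to 4.85). Etv1 thus had the same direction in each library.

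Osr2, the factor of joint and palate mesenchyme, had 206 CPM in injured endoneurial-like bead cells against 29.9 CPM in epineurial-like ones, a log2 ratio of 2.79 (1.97 to 3.76). The values were 249 against 33.5 CPM in the FACS cells (2.90, 2.41 to 3.42) and 674 against 34.0 CPM in the uninjured cells (4.31, 3.79 to 4.88). The epineurial-like level of Osr2 was thus within 29.9 to 34.0 CPM in all 3 libraries, while its endoneurial-like level ranged more than its intervals. Sox9 had 263 against 39.8 CPM in the injured bead cells (2.72, 2.01 to 3.54). The FACS cells had 239 against 34.3 CPM of Sox9 (2.80, 2.31 to 3.32), and the uninjured cells 436 against 26.3 CPM (4.05, 3.46 to 4.71). Meox1 had 93.3 against 4.98 CPM in the injured bead cells (4.23, 2.35 to 7.29). Its values were 81.9 against 3.35 CPM in the FACS cells (4.61, 3.19 to 6.53) and 65.0 against 4.38 CPM in the uninjured cells (3.89, 2.47 to 5.81). The epineurial-like side of Meox1 rested on 2, 4 and 4 UMIs, so its ratio is known with less precision than its direction.

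Prrx1, the limb mesenchyme homeobox gene, had 113 CPM in endoneurial-like against 873 CPM in epineurial-like cells of the injured bead library (-2.95, -3.21 to -2.69). The FACS cells had 86.6 against 551 CPM (-2.67, -3.04 to -2.32), and the uninjured cells 132 against 756 CPM (-2.52, -2.79 to -2.26). Osr1 had 21.5 against 226 CPM in the injured bead cells (-3.39, -3.99 to -2.82). It had 23.4 against 191 CPM in the FACS cells (-3.03, -3.76 to -2.36) and 41.5 against 194 CPM in the uninjured cells (-2.22, -2.72 to -1.75). The paralogues Osr1 and Osr2 therefore had opposite directions in the same cells, and so did the homeobox genes Meox1 and Prrx1.

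Of the other 3 genes, Meox2 and Twist2 were each called in 1 library and Twist1 in none. Meox2 had 124 against 117 CPM in endoneurial-like and epineurial-like injured bead cells (0.09, -0.37 to 0.58) and 99.3 against 216 CPM in the uninjured cells (-1.12, -1.47 to -0.78), where alone it was called. That call was lost when subclasses were taken from each cell's highest marker score. In the FACS cells Meox2 had 105 against 147 CPM (-0.48, -0.87 to -0.11). Twist2 was called lower in the injured bead cells only, with 22.1 against 62.2 CPM (-1.49, -2.26 to -0.70), while the uninjured ratio was 0.09 (-0.73 to 0.92). The Twist1 log2 ratios were 0.28, -0.27 and -0.39, and each interval included 0.

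Differentiating-like cells, which were nearly all from the injured libraries, had Meox2 and Prrx1 at higher and the endoneurial set at lower levels than endoneurial-like cells. In the bead library Meox2 had 311 CPM in differentiating-like cells against 124 CPM in endoneurial-like cells (1.32, 1.09 to 1.55). Prrx1 had 456 against 113 CPM for the same pair (2.01, 1.78 to 2.24). Etv1 had 6.71 against 83.7 CPM (-3.64, -4.55 to -2.85), and Meox1 14.4 against 93.3 CPM (-2.70, -3.31 to -2.13). Sox9 had 91.5 against 263 CPM (-1.52, -1.77 to -1.27), and Osr2 53.6 against 206 CPM (-1.94, -2.26 to -1.63). In all, 3 of 9 members were called higher and 4 lower in differentiating-like than in endoneurial-like bead cells, beside 13.5% and 6.48% of 9726 genes. Set against epineurial-like cells, Sox9 (1.20, 0.46 to 2.04) and Meox2 (1.41, 0.98 to 1.87) were called higher and Osr1 (-1.67, -2.05 to -1.27) and Twist2 (-2.16, -2.99 to -1.33) lower, beside 10.4% and 8.77% of 9881 genes. The FACS library also called Sox9 and Meox2 higher and Osr1 lower in differentiating-like than in epineurial-like cells. Twist2 was not called there (-0.82, -1.75 to 0.06). Against endoneurial-like cells of that library, Sox9, Etv1, Osr2 and Meox1 were called lower in differentiating-like cells, beside 7.12% of 9480 genes. Meox2 had 297 CPM in those differentiating-like cells against 105 CPM in the endoneurial-like ones, and Prrx1 396 against 86.6 CPM.

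Perineurial-like cells had Meox2 at 312 CPM (from 68 UMIs) in the injured bead library and 405 CPM (from 56 UMIs) in the uninjured library. The uninjured value was above the 216 CPM of epineurial-like and 99.3 CPM of endoneurial-like cells, with intervals that did not overlap. In the injured library the perineurial-like and differentiating-like levels of Meox2, 312 and 311 CPM, did not differ beyond their intervals. Osr1, Osr2, Meox1 and Twist2 rested on at most 6 UMIs each in perineurial-like cells of either library.

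**Figure D2:**
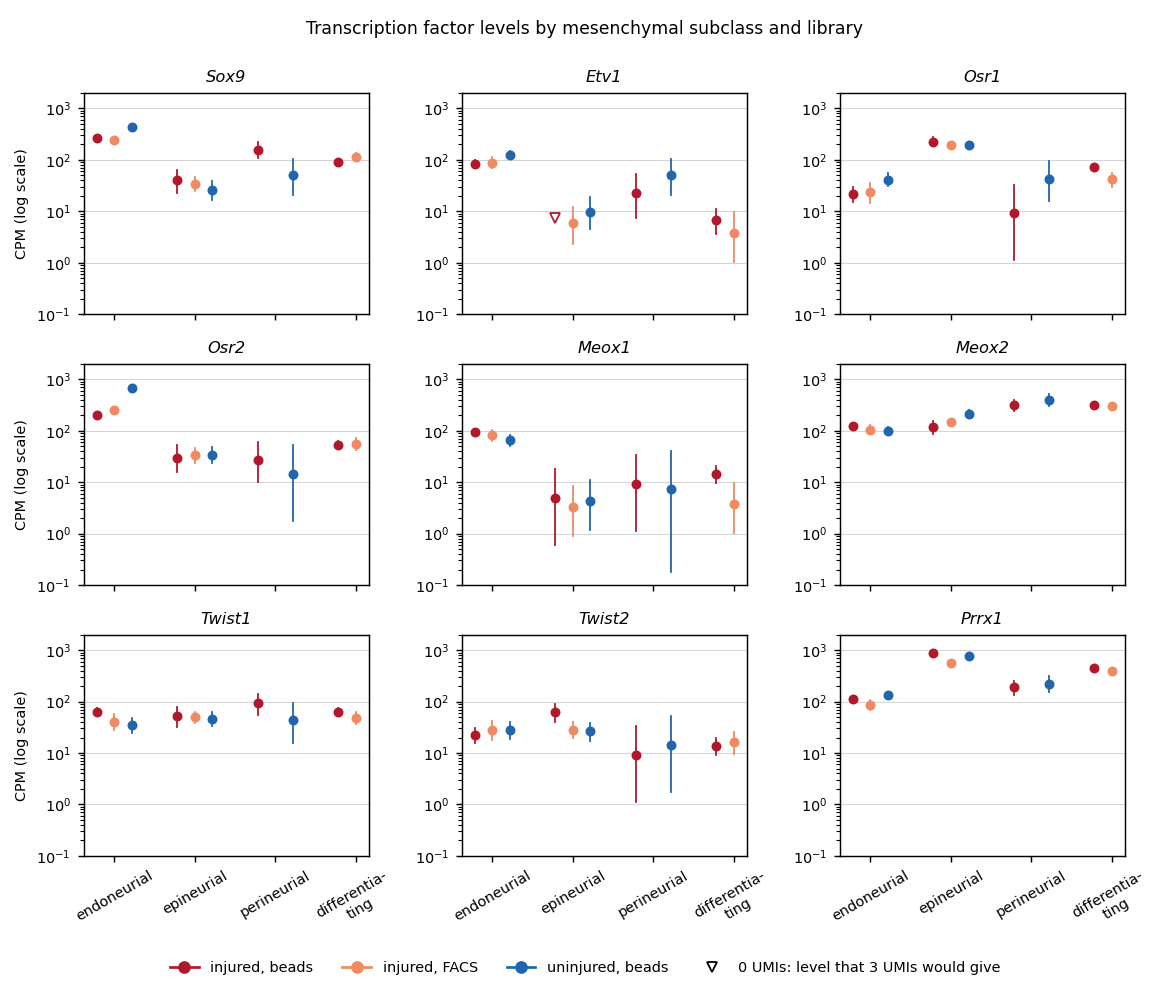
Level of 9 factors by mesenchymal subclass, as CPM on a log axis with exact Poisson 95% intervals, coloured by library; pools of fewer than 50 cells are not drawn. Sox9, Etv1, Osr2 and Meox1 are highest in endoneurial-like cells of all 3 libraries, Osr1 and Prrx1 in epineurial-like cells, and Twist1 stands within 35.2 to 91.9 CPM throughout.

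Set against the uninjured cells as whole pools, Osr2 and Etv1 were lower in the injured mesenchymal cells of both libraries, and no member was called higher in either. Osr2 had 105 CPM (95.5 to 114) in the injured bead cells and 94.5 CPM (85.5 to 104) in the injured FACS mesenchymal-like cells, against 360 CPM (335 to 386) in the uninjured cells. The log2 ratio was -1.78 (-1.95 to -1.62) for the bead cells and -1.93 (-2.11 to -1.75) for the FACS cells. Etv1 had 35.0 CPM in the injured bead cells and 29.4 CPM in the injured FACS cells, against 72.8 CPM in the uninjured cells, with log2 ratios of -1.06 (-1.38 to -0.73) and -1.31 (-1.66 to -0.96). The Etv1 value of the bead cells was just inside the 2-fold limit. It narrowly missed the limit with the 1124 mesenchymal-like cells of the rebuilt clusters in place of the authors' cells (1.998-fold lower). It also missed it with every cell thinned to 1000 UMIs (-0.86) and with the subclasses given the same weight (-0.82). The Osr2 call was kept each time. The same weight was given to endoneurial-like, epineurial-like and perineurial-like cells only, and differentiating-like and unnamed cells were left out. Sox9 had 149 CPM in the injured bead cells and 115 CPM in the FACS cells, against 237 CPM in the uninjured cells. Its log2 ratio of -0.67 (-0.83 to -0.50) missed the limit in the bead cells, and -1.04 (-1.22 to -0.86) passed it in the FACS cells. By the rule 2 of 9 members were lower in the bead cells, beside 6.90% of all 9783 genes, and 0 were higher, beside 10.1%. With TMM factors the same 2 were lower, beside 8.83% of all genes, and 0 higher, beside 7.66%. In the FACS cells 3 of 9 were lower, beside 8.42% of 9759 genes, and 0 were higher, beside 11.4%. Both comparisons use the same uninjured library, so they are not independent. In every FACS comparison with the uninjured cells, strain, preparation and the choice of mesenchymal cells differ along with injury. Their parts cannot be told apart there. The median log2 ratio of the 9 members was -0.33, beside 0.19 for all genes, in the bead cells and -0.54, beside 0.15, in the FACS cells.

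Osr1, the nearest gene outside the limit in the bead cells, had 63.6 CPM in the injured bead cells and 71.4 CPM in the FACS cells, against 106 CPM in the uninjured cells (-0.73, -0.98 to -0.48, and -0.56, -0.82 to -0.31). With the same weight for the subclasses, the bead ratio was -0.12 (-0.48 to 0.25) for Osr1 and -0.16 (-0.41 to 0.09) for Sox9. Meox2 had 225 and 230 CPM in the injured bead and FACS cells, against 170 CPM in the uninjured cells (0.41, 0.24 to 0.58, and 0.44, 0.27 to 0.62). Twist1 had 62.2 and 44.3 CPM against 40.1 CPM in the uninjured cells, with ratios of 0.63 (0.28 to 0.99) and 0.14 (-0.23 to 0.53). Prrx1 had 346 and 333 CPM against 402 CPM (-0.22, -0.34 to -0.10, and -0.27, -0.40 to -0.15). Meox1 had 42.3 and 24.7 CPM against 36.0 CPM, and Twist2 had 20.9 and 20.5 CPM against 26.3 CPM. The bead interval of Meox1 (-0.15 to 0.63) and both intervals of Twist2 (-0.82 to 0.16, and -0.85 to 0.15) included 0. The sources used here do not say whether counting used the strand, so reads of Meox1 and of its antisense gene Gm11551, with 19 UMIs in the injured and 5 in the uninjured cells, cannot be told apart, nor can those of Prrx1 and the overlapping Gm26523 with 12 and 6 UMIs.

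**Figure D3:**
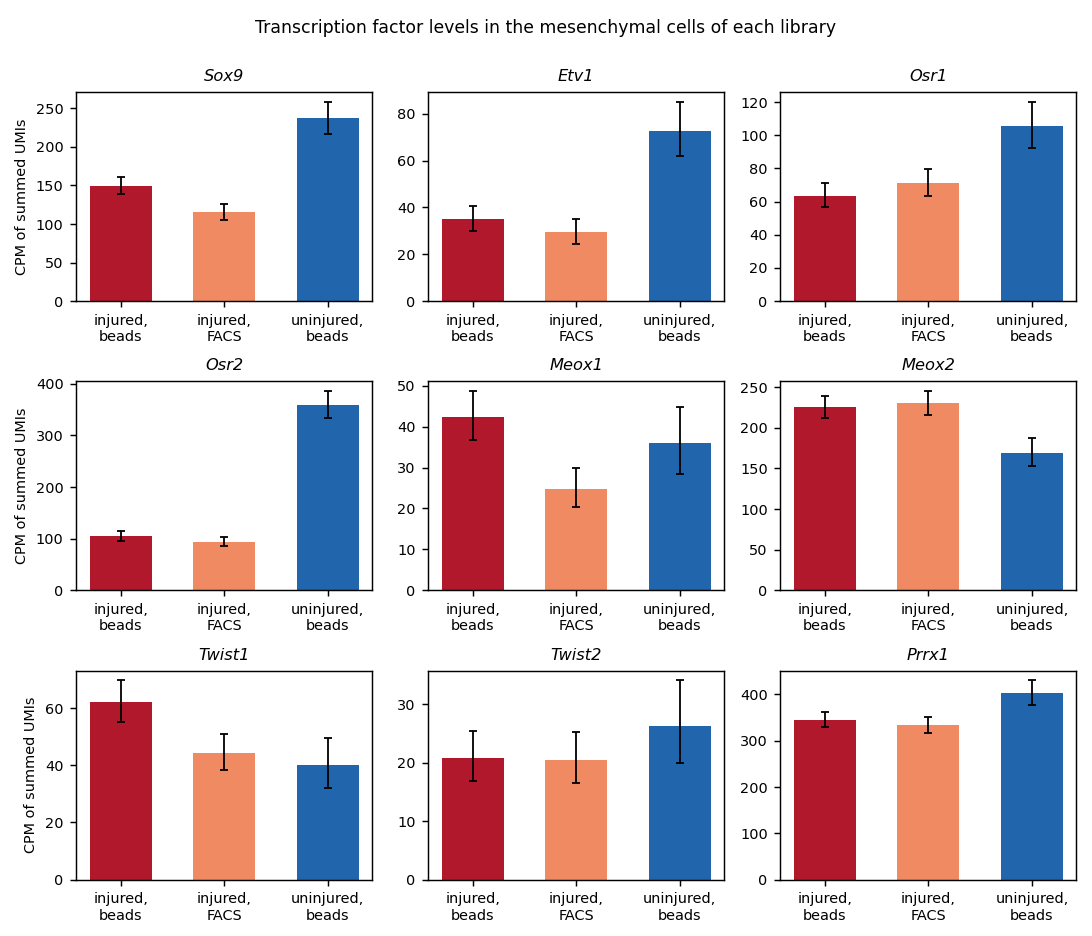
Level of 9 factors in the mesenchymal cells of the injured bead, injured FACS and uninjured bead libraries, as CPM on linear axes from 0; bars are pools of 1 library each and error bars exact Poisson 95% intervals. Osr2 stands at 105 and 94.5 CPM in the injured libraries and at 360 CPM in the uninjured one, and Prrx1 between 333 and 402 CPM in all 3.

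Within a subclass, only the Osr2 difference was called in both injured libraries. In endoneurial-like cells Osr2 had 206 CPM in the injured bead cells and 249 CPM in the injured FACS cells, against 674 CPM in the uninjured cells (-1.71, -1.90 to -1.52, and -1.44, -1.66 to -1.21). It was the 1 of 9 members called in either comparison, beside 9.43% of 9323 genes lower and 10.6% higher in the bead cells, and 10.1% of 9333 genes lower and 11.6% higher in the FACS cells. Etv1 had 83.7 and 89.0 CPM in the injured endoneurial-like cells, against 127 CPM in the uninjured ones (-0.60, -0.95 to -0.26, and -0.52, -0.94 to -0.10). Sox9 had 263 and 239 CPM against 436 CPM (-0.73, -0.92 to -0.54, and -0.87, -1.11 to -0.63). Twist1 had 63.4 and 41.0 CPM against 35.2 CPM (0.85, 0.31 to 1.42, and 0.22, -0.48 to 0.91). Meox1 had 93.3 and 81.9 CPM against 65.0 CPM (0.52, 0.11 to 0.95, and 0.33, -0.16 to 0.83).

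In epineurial-like cells Osr2 had 29.9 and 33.5 CPM in the injured bead and FACS cells, against 34.0 CPM in the uninjured cells, with ratios of -0.19 (-1.28 to 0.82) and -0.02 (-0.73 to 0.70). Osr1, an epineurial-like gene, had 226 and 191 CPM against 194 CPM (0.22, -0.16 to 0.60, and -0.02, -0.31 to 0.27). Prrx1 had 873 and 551 CPM against 756 CPM (0.21, 0.02 to 0.40, and -0.46, -0.61 to -0.30), so its bead and FACS values lay on opposite sides of the uninjured one. Meox2 had 117 and 147 CPM in injured epineurial-like cells against 216 CPM in the uninjured ones (-0.88, -1.38 to -0.42, and -0.55, -0.85 to -0.25), a direction opposite to that of the whole pools. Twist2 was called higher in the bead cells, with 62.2 CPM from 25 UMIs against 26.3 CPM from 24 UMIs (1.24, 0.37 to 2.11), beside 5.04% of 9280 genes higher and 2.40% lower. The FACS cells had 28.4 CPM of Twist2 (0.11, -0.68 to 0.93), and no member was called in them, beside 7.00% of 9391 genes higher and 5.98% lower. In perineurial-like cells Sox9 was called higher, with 156 CPM from 34 UMIs in the injured bead cells against 50.6 CPM from 7 UMIs in the uninjured ones (1.63, 0.43 to 3.04), beside 3.32% of 9683 genes higher and 4.43% lower. With those cells thinned to 1000 UMIs, Sox9 was found in 9.84% of 61 injured and 7.84% of 51 uninjured perineurial-like cells.

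**Figure D4:**
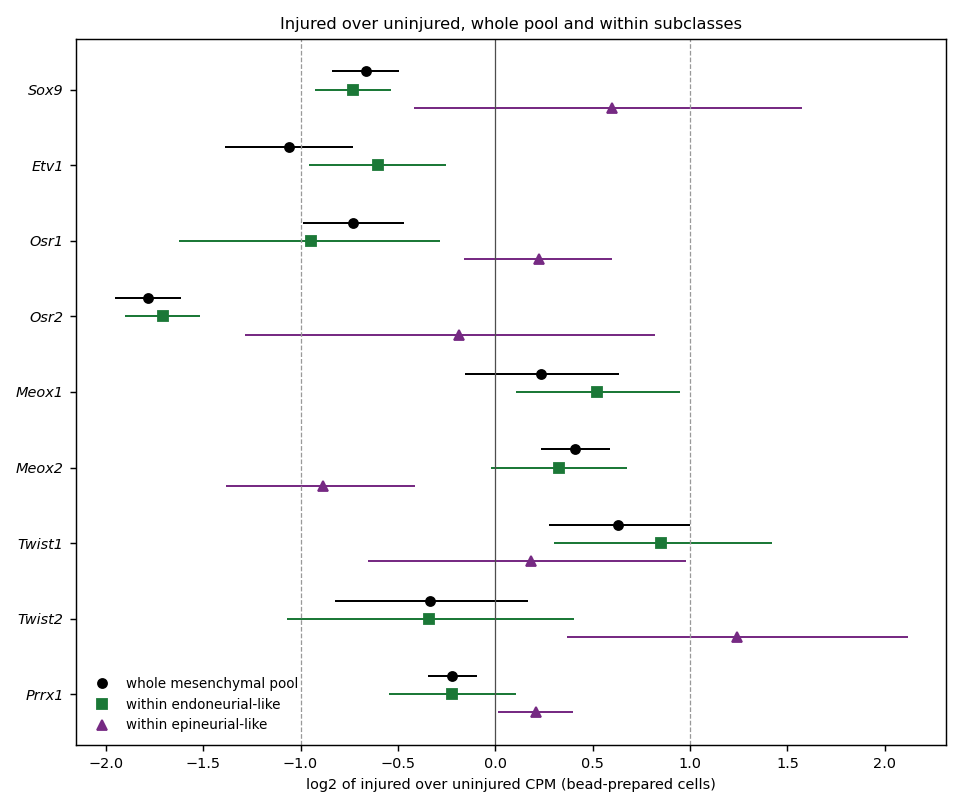
Log2 ratio of injured over uninjured CPM in bead-prepared mesenchymal cells, as whole pools (circles), within endoneurial-like cells (squares) and within epineurial-like cells (triangles), with exact conditional binomial 95% intervals; dashed lines mark 2-fold, and ratios under the 10 CPM floor are not drawn. Osr2 lies at -1.78 in the whole pool and -1.71 within endoneurial-like cells, and Meox2 at 0.41 in the whole pool and -0.88 within epineurial-like cells.

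Marker lists of other cell types differed between the pools as well, and their part in the results was not tested beyond the counts given here. Mononuclear phagocyte markers summed to 315 CPM in the injured bead cells and 1128 CPM in the injured FACS cells, against 19.8 CPM in the uninjured cells, where C1qa and Cd209a were at 0. Endothelial markers summed to 140 and 80.2 CPM against 187 CPM, with all 7 detected in each pool, and pericyte or smooth muscle markers to 244 and 141 CPM against 290 CPM, with all 8 detected. Schwann markers summed to 117 and 150 CPM against 380 CPM, with all 8 detected. Erythroid markers summed to 112 CPM in the injured bead cells against 1612 CPM in the uninjured cells, with Hba-a2 at 0 in the injured ones, and the FACS table lists 1 of these 5. Adipocyte markers summed to 79.9 and 77.0 CPM against 231 CPM. The 7 mesenchymal markers themselves summed to 59627 and 52439 CPM against 96039 CPM. When cells with 2 or more UMIs of such markers were left out, 432 of 1289 injured bead and 203 of 880 uninjured cells remained. In those cells Osr2 was still called lower (-2.68), and Etv1 (-1.23), Sox9 (-1.35) and Meox1 (-1.37) were called lower as well. Only 42 of 652 FACS cells remained.

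The share of cells with a UMI was compared after thinning every cell to 1000 UMIs. Thinning left out 315 injured bead, 34 injured FACS and 119 uninjured cells. Osr2 was found in 6.26% (4.82 to 7.97) of injured bead cells and 5.83% of injured FACS cells, against 18.1% (15.5 to 21.1) of uninjured cells. Sox9 was found in 9.86% and 9.87% against 15.8%, and Etv1 in 3.29% and 1.94% against 6.70%. Osr1 was found in 5.75% and 5.99% against 9.46%. Twist1 was found in 6.67% and 4.21% against 3.42%, and Meox2 in 18.2% and 19.6% against 13.5%. Prrx1 was found in 28.7% and 28.2% against 26.5%, Twist2 in 2.26% and 2.43% against 3.15%, and Meox1 in 2.67% and 1.46% against 1.97%. The exact binomial intervals of the injured bead and uninjured cells were apart for Sox9, Etv1, Osr1 and Osr2, all lower in the injured cells. They were also apart for Twist1, which was higher. Such intervals were not compared over all genes, so these counts have no background to be read against. Without thinning, Osr2 was found in 18.9% of injured bead cells against 29.3% of uninjured cells, and Sox9 in 24.1% against 26.4%.

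Pairs of factors were seldom found in the same cell at this depth. At 1000 UMIs per cell, 37.5% of injured bead cells, 41.6% of injured FACS cells and 31.0% of uninjured cells held none of the factors, and 44.8%, 40.1% and 44.7% of the same cells held exactly 1. A pair was counted as co-detected where at least 10 cells held both and the second gene was at least 2 times as frequent in cells with the first as in cells without it. The injured bead cells had 0 such pairs of 45, but only 8 pairs had 10 cells with both genes and could be counted, as could 4 in the FACS and 9 in the uninjured cells. The uninjured cells had 1 of 36, Sox9 with Osr2, found together in 40 of 761 cells; Osr2 was in 33.3% of the cells with Sox9 against 15.3% of those without. The FACS cells had 1 of 36, Osr1 with Prrx1, found together in 22 cells, with Prrx1 in 59.5% of the cells with Osr1 against 26.2% of those without. In the uninjured cells Prrx1 was in 12.5% of cells with Sox9 against 29.2% of those without, in 13.0% of cells with Osr2 against 29.5%, and in 11.8% of cells with Etv1 against 27.6%. Meox2 was in 5.83% of cells with Sox9 against 14.98% of those without, and in 5.80% of cells with Osr2 against 15.2%. These 5 pairs passed a limit of 0.5 times, but the result depended on depth. The uninjured cells had 0 such pairs with all UMIs and 2 others (Sox9 with Osr1, Meox1 with Prrx1) at 2000 UMIs. The injured bead and FACS cells had 0 such pairs at 1000 UMIs, and 2 and 1 at 2000 UMIs. With all UMIs of each cell, the 6 pairs among Sox9, Etv1, Osr2 and Meox1 were co-detected in the bead, FACS and uninjured cells alike. Deeper cells then weigh more. Pairs with Twist genes were also co-detected then. They were Sox9 with Twist1, Etv1 with Twist2, and Meox1 with Twist1 and with Twist2 in the bead cells, and Etv1 with Twist2 in the FACS cells. Osr2 was in 39.9% of Sox9 cells against 12.3% of the others in the injured bead cells, 47.5% against 19.3% in the FACS cells and 56.0% against 19.8% in the uninjured cells. Within the endoneurial-like or the epineurial-like cells of either bead library, at most 5 pairs had 10 cells with both genes at 1000 UMIs, which is too few to read the count of 0.

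The genes most like each factor were ranked by the Pearson correlation of log2(CPM + 10) over 19 pools of named classes and subclasses, among 7839 genes. The pools share libraries and some share cells, so r is given as a description. For Sox9 they were Gjb5 (0.94), Osr2 (0.93) and Il33 (0.93), and for Osr2 Kcnk2 (0.96), the proteoglycan gene Lum (0.95) and Sox9 (0.93). For Etv1 they were Cdkn2b, itself an endoneurial marker here (0.88), Hrsp12 (0.86) and Ptgfr (0.86). Osr1 was nearest to Tmeff2 (0.97), the epineurial marker Clec3b (0.97) and Lrrn4cl (0.96), and Prrx1 to Cd248 (0.95) and Smim1 (0.93). Meox1 was nearest to Xbp1 (0.87), Csgalnact1 (0.84) and the endothelial adhesion gene Sele (0.81), and Meox2 to Meis2, Lrrc32 and Nfia (0.90 each). Twist1 was nearest to Scarf2 (0.97), Hoxc10 (0.96) and Serping1 (0.96), and Twist2 to C1ra (0.95), Rarres2 (0.94) and Sobp (0.94).

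Other transcription factor lists give the surroundings of these values. For every list here and in the next paragraph, the all-gene shares were 10.1% higher and 6.90% lower in the bead cells. In the FACS cells they were 11.4% and 8.42%. The lists are short, and their counts were not tested against these shares. Of 18 paralogues of the members, 7 reached 10 CPM; in the injured bead cells Prrx2 was called higher, with 33.5 CPM against 8.30 CPM in the uninjured cells (2.01, 1.31 to 2.80), and Sox8 lower, with 15.2 against 57.6 CPM (-1.93, -2.36 to -1.50). Sox6 was also lower, with 4.42 against 15.2 CPM (-1.78, -2.64 to -0.95), and Etv4 had 18.3 against 18.9 CPM. The FACS cells called the same 3 paralogues in the same directions. The Prrx1 ratio in the same bead cells was -0.22. Of 24 other mesenchymal and limb patterning factors past the floor, En1 (13.7 against 3.23 CPM), Bnc2 (56.7 against 22.6 CPM) and Snai2 were called higher and none lower, and in the FACS cells 4 of 26 were higher and 5 lower. Ebf1 and Eya2 had the lowest ratios of that list in the bead cells (-0.86 and -0.76). Of 5 neural crest factors Snai2 was higher (63.4 against 30.4 CPM, 1.06) and Sox8 lower, while Ets1 had 39.2 against 25.8 CPM and Msx1 9.27 against 12.9 CPM.

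Of 9 Hox genes past the floor, Hoxc11 was called lower (16.4 against 33.2 CPM, -1.01, -1.50 to -0.53) and none higher in the bead cells, and 4 were lower in the FACS cells. Hoxc4 had a ratio of -0.96, Hoxa7 0.04 and Hoxc8 -0.02. Among skeletal and tendon lineage factors, Runx1 had 143 against 21.7 CPM (2.72, 2.29 to 3.18) and Runx2 48.0 against 5.07 CPM (3.24, 2.38 to 4.27), both called higher. Egr1 was called lower (1748 against 3684 CPM, -1.08, -1.12 to -1.03) and Egr2 had 74.2 against 53.9 CPM. Of 4 cartilage matrix genes that are known targets of Sox9 in chondrocytes and passed the floor, the directions differed: Col11a1 was higher (184 against 47.0 CPM, 1.97, 1.67 to 2.28), Comp lower (56.7 against 451 CPM, -2.99, -3.19 to -2.80), Col9a2 lower (13.1 against 48.4 CPM, -1.89) and Col2a1 had 41.5 against 42.9 CPM (-0.05, -0.41 to 0.32). In the FACS cells none of the 4 was called higher: Col2a1 (15.9 CPM, -1.43), Col9a2 (-2.61) and Comp (-4.54) were called lower, and Col11a1 had 75.6 CPM (0.68).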

How the data were processed

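The authors deposited 4 tables of raw UMI counts, 1 row per gene and 1 column per cell, without normalization. Alignment used mm10, per the submitters' processing notes. The sources used here give neither aligner nor strand, nor the rule by which the authors predicted mesenchymal cells. No doublet caller was run, so doublets remain. Cells with at least 200 genes were clustered with scanpy 1.11.5 (2000 variable genes, 30 components, 15 neighbours, Leiden resolution 0.8), without the 10 members. A cluster was named where at least 3 markers of a list were each detected in at least 5% of its cells. The list also needed a mean log2 score of at least 1, and at least 1 above the next list. Clusters stayed unnamed where another list had more of the 10 leading genes. Shallow clusters with none of their own markers among those 10 also stayed unnamed. The cells of both mesenchymal tables were clustered together, and the FACS mesenchymal-like cells on their own. Counts were summed per pool and divided by its total. Ratios have exact conditional binomial intervals, levels exact Poisson intervals and shares exact Clopper-Pearson intervals, all 95%. With 1 library per group no p-value was computed. A gene was called at 10 CPM or more in 1 pool, a 2-fold ratio and an interval that excludes 1, computed for all genes; on simulated counts the procedure was checked. A gene with no row in the uninjured table was read as 0, and one with no row in the FACS table has no value. TMM factors (edgeR 4.0.16) and DESeq2 1.42.0 size factors were used as alternative scalings only. Named genes were all 10 members, the 2 highest and 2 lowest ratios and the called genes of each other list, and the 3 genes most like each member among genes of at least 50 CPM in 1 pool, of which 1 is not reported here. The members and lists were chosen with earlier results of these data known.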

Additional observations from a re-analysis of the deposited data

How the results depend on the processing

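No paired analysis was possible because each group is 1 library, and for the same reason no replicate could be left out. The endoneurial against epineurial pattern kept its 4 higher members (Sox9, Etv1, Osr2, Meox1) and its lower Osr1 and Prrx1 at both other clustering resolutions, with subclasses taken from each cell's highest marker score and, added after seeing the data, in the FACS cells. Osr2 was called lower in injured cells under all alternatives run. Of the 9 members, the number lower in injured bead cells was 2, and it was 1 (Osr2) with cells thinned to 1000 UMIs (beside 5.62% of all genes), with the same weight for the subclasses (5.26%), in mesenchymal-like cells of the rebuilt clusters (6.88%) and, added after seeing the data, in named subclasses only. It was 4 (Etv1, Meox1, Osr2, Sox9) without cells that held other class markers, a filter not scaled to depth, beside 6.10% of all genes. The number higher was 1 instead of 0 (Twist1) with thinned cells, beside 10.4% of all genes. With the same weight for the subclasses Meox2 had a log2 ratio of -0.38 (-0.69 to -0.07). Twist2 was at 0.44 (-0.23 to 1.12) and Prrx1 at 0.08 (-0.11 to 0.27). Each was opposite in sign to its whole-pool value, but only the Meox2 interval excluded 0. These ratios leave out the differentiating-like and unnamed cells. Prrx1 was also at 0.03 (-0.19 to 0.24) with thinned cells. TMM and DESeq2 scaling moved all log2 ratios by -0.15 in the bead and -0.09 in the FACS comparison, and neither scaling ended a call of a member or added one. Without cells that held other class markers, Etv1 and Meox1 had no UMI left in the FACS pool, so no ratio was computed; Twist1 was at -1.70, Twist2 at 0.62 and Prrx1 at 0.20 in those 42 cells, opposite in sign to their main values, with intervals that include 0.

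Members whose mesenchymal-like interval lay above that of every other named class were 2 in the bead library and 0 in the FACS library. With at least 500 genes per cell they were 0 and 4 (Sox9, Osr2, Meox2, Prrx1), with thinned cells 0 and 1 (Prrx1), and among classes of at least 100000 UMIs, added after seeing the data, 4 and 5. Co-detected pairs were 0 in injured bead and 1 in uninjured cells. With all UMIs they were 10 and 6, at 2000 UMIs 4 and 2, and within the largest subclass 0 in either. The FACS cells had 1 such pair, 7 with all UMIs and 0 at 2000 UMIs. Members with intervals of their shares apart were 1 higher and 4 lower in injured cells; with all UMIs they were 2 and 2, and at 2000 UMIs 2 were higher (Meox2, Twist1) and 3 lower (Sox9, Etv1, Osr2). The cause of these moves was not tested, and none of the counts in this paragraph has a share over all genes beside it. Depth limits Tcf21, Twist2 and the perineurial-like values, and 1 library per group limits all comparisons.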
